A study of Homo sapiens with 8 samples.

Results

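The genes described here are 36 genes of sterol and fatty acid synthesis in a human Ewing sarcoma cell line, measured with and without an induced knock-down of the transcription factor FEZF1. They were chosen for their known roles, with earlier results of these data known, out of 15993 genes tested. They comprise 5 regulators of the sterol regulatory element binding proteins (SREBP), 21 genes of sterol synthesis and transfer, and 10 genes of fatty acid synthesis and desaturation. All 36 were found in the files and all passed the filter on low counts.

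The cells were A673/TR/shFEZF1, derived from the Ewing sarcoma line A673 through 1 clone that carries the tetracycline repressor. An shRNA against FEZF1 was introduced into this clone by electroporation, and doxycycline switches it on. The polyclonal population and 3 clones, numbered 3, 5 and 6, were sequenced, each as 1 control culture without doxycycline and 1 culture given doxycycline at 1 µg/mL for 72 h, so that each group had 4 cultures and the 2 groups were paired by origin. All cultures carried the repressor and the shRNA cassette, the clones had been picked for strong knock-down, and no culture that received doxycycline without the FEZF1 shRNA was analysed here, so the drug and the knock-down cannot be told apart. With 1 culture per origin and condition, p-values measure the spread between origins in their response.

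SREBP-1 and SREBP-2, the products of SREBF1 and SREBF2, are membrane-bound transcription factors of the endoplasmic reticulum. When sterols are scarce, the escort protein SCAP carries them to the Golgi, where they are cleaved and released to the nucleus, whereas INSIG1 and INSIG2 hold the complex back when sterols are abundant. SREBP-2 mainly drives cholesterol synthesis and SREBP-1 mainly drives the synthesis and desaturation of fatty acids, and the genes of both pathways are commonly measured together as their targets. Growing tumour cells draw on both pathways for membrane lipid.

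The libraries held 26719886 to 42422421 reads assigned to transcripts, of which 89.9% to 91.1% lay on transcripts that could be matched to a gene symbol. FEZF1 itself was lower in every doxycycline culture than in any control culture. It was at 96.4, 70.5, 107 and 74.4 CPM (the counts-per-million scale) in the controls of the polyclonal population and clones 3, 5 and 6, and at 60.6, 43.0, 60.8 and 36.4 CPM in the doxycycline cultures in the same order, a log2 fold change of -0.81 ± 0.07 (SE, n = 4 pairs; edgeR quasi-likelihood test with origin as a block, adjusted p = 0.0059). CPM values here are scaled by the TMM factors of edgeR and are given in this order of origins throughout. The 10 Ewing sarcoma markers summed to 4122 to 5784 CPM in controls and 4157 to 5953 CPM with doxycycline. Of these, NR0B1 (log2 fold change 0.67 ± 0.08) and NKX2-2 (0.30 ± 0.07) were called higher and LIPI (-0.30 ± 0.05) and GLI1 (-0.77 ± 0.15) lower (SE, n = 4 pairs, edgeR adjusted p from 0.0075 to 0.041). Of 15 markers of other cell types, 11 averaged under 1 CPM, and CD3E, CDH5 and MYOD1 were at 0 on matched transcripts in all libraries. The authors' mean count for CDH5 was 2.44, so its few reads lay on transcripts that were not matched. The list summed to 101 to 176 CPM in controls and 147 to 217 CPM with doxycycline, mostly as KRT18, a keratin. KRT18 was higher with doxycycline (log2 fold change 0.52 ± 0.08 SE, n = 4 pairs, edgeR adjusted p = 0.016), and its part in the results was not tested. The file of the clone 5 control library lists its transcripts in another order and number format than the other 7 files. Clone 5 had the largest fall in 26 of the 36 genes, so the values of the called genes among the 36 are also given without it. For the genes of the comparison lists they are not given. Without clone 5, the edgeR calls in the wider lipid and proliferation lists went from 23 to 2.

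All 36 genes had a negative log2 fold change upon doxycycline, and 8 passed the test. The 8 were SREBF1, SREBF2, SQLE, SC5D, STARD4, ELOVL6, SCD and FADS1, and none of the 36 was called higher. Of all genes tested, 3.91% were called lower and 3.73% higher by the same fit. The median log2 fold change was -0.34 over the 5 regulators, -0.23 over the 21 sterol genes and -0.28 over the 10 fatty acid genes, against 0.0042 over all 15993 genes. Without clone 5 the median of the sterol genes was -0.13 and that of the fatty acid genes -0.23. At an unadjusted p under 0.05, 22 of the 36 genes were lower, among 3970 of all genes in either direction.

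**Figure D1:**
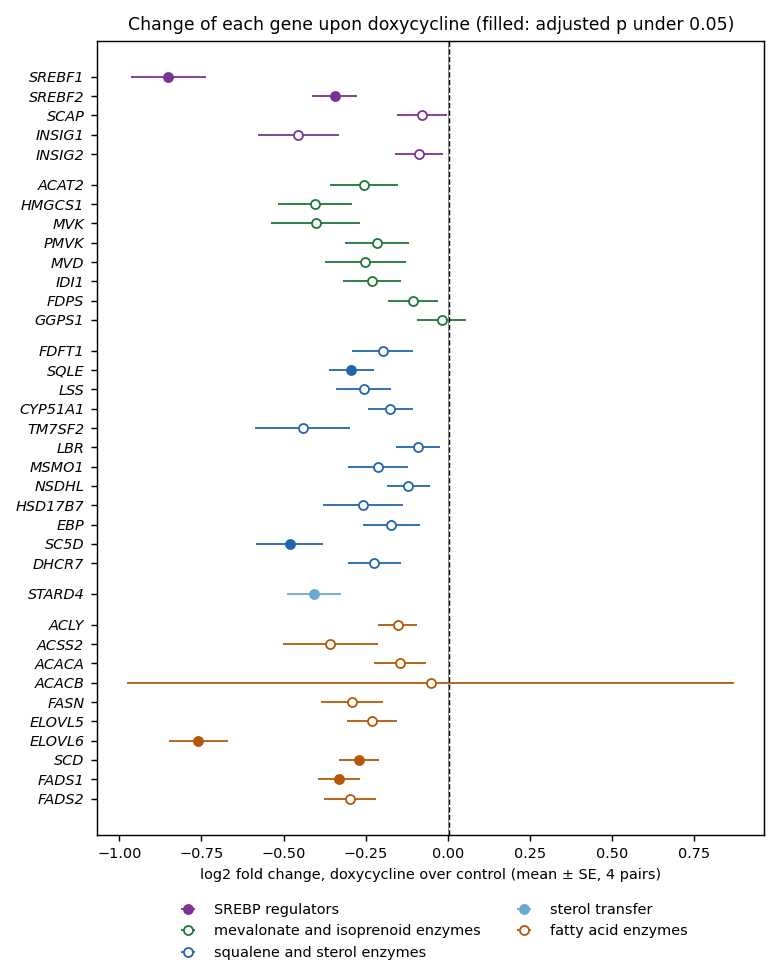
The log2 fold change of each of the 36 genes, doxycycline over control (x axis, log2 scale), with bars for the SE over 4 pairs of cultures. Genes are grouped and coloured by role, filled points passed an adjusted p of 0.05, and the dashed line is the median of all genes tested. Every point lies left of the dashed line, with SREBF1 (-0.85) and ELOVL6 (-0.76) farthest from it, and the bar of ACACB, of which only 9.66% of the implied reads were matched, spans it.

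These calls rest on the pairing by origin. Without the origin as a block, edgeR called none of the 36 genes (adjusted p from 0.29 to 1.00), although 4 had an unadjusted p under 0.05, and of all genes tested it called 1, a lower one, or 0.00625%. DESeq2 with the block called 17 of the 36 lower, against 8.31% of all genes with an adjusted p, and without the block it called SREBF1 alone, against 0.893%. The spread between origins was wide beside the change upon doxycycline: for 32 of the 36 genes, the log2 range among the 4 control cultures exceeded the size of the log2 fold change. In bulk RNA, fewer cells that express a gene and less of its RNA per cell cannot be told apart.

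Counted by pairs alone, 19 of the 36 genes were lower with doxycycline in all 4 origins, namely 4 of 5 regulators, 9 of 21 sterol genes and 6 of 10 fatty acid genes, against 15.9% of all genes tested. In 2 genes, SREBF1 and ELOVL6, the highest doxycycline culture lay below the lowest control culture, against 2.29% of all genes tested.

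Among the regulators, SREBF1 and SREBF2 fell. SREBF1 was at 54.9, 52.4, 53.8 and 77.0 CPM in controls and at 41.8, 25.1, 25.8 and 41.3 CPM with doxycycline. The groups did not overlap, and the control of clone 6 stood well above the other controls. Its log2 fold change was -0.85 ± 0.11 (SE, n = 4 pairs, edgeR adjusted p = 0.0097), or 44.5% lower. Without clone 5 the log2 fold change was -0.80 (edgeR adjusted p = 0.047), and without clone 6 it was -0.84 and just missed the threshold (edgeR adjusted p = 0.05005). The matched reads of SREBF1 were nearly all on 1 transcript, NM_001321096.3. The matched transcripts carried 42.0% of the reads that the authors' mean for the gene implies, so the value describes part of the gene's RNA.

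SREBF2, the factor linked most closely to cholesterol synthesis, was at 336, 274, 274 and 320.5 CPM in controls and at 312, 207, 199.6 and 241 CPM with doxycycline. Each pair went down, least in the polyclonal population, and the groups overlapped only through the doxycycline culture of that population. The log2 fold change was -0.34 ± 0.07 (SE, n = 4 pairs, edgeR adjusted p = 0.027), or 21.2% lower. The call was lost without clone 3 (-0.33, edgeR adjusted p = 0.076), clone 5 (-0.32, edgeR adjusted p = 0.11) or clone 6 (-0.32, edgeR adjusted p = 0.0997).

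INSIG1, which retains the SREBP complex and is itself a target of the pathway, did not pass the test. It was at 159, 93.5, 124 and 163 CPM in controls and at 153, 67.8, 65.4 and 124 CPM with doxycycline, a log2 fold change of -0.45 ± 0.12 (SE, n = 4 pairs, edgeR adjusted p = 0.065). The control values spread over a wide range, and the difference was small in the polyclonal population and largest in clone 5.

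INSIG2 and the escort SCAP showed small differences. INSIG2 was at 20.05, 19.3, 16.8 and 24.8 CPM in controls and at 18.8, 18.0, 16.3 and 23.0 CPM with doxycycline (log2 fold change -0.09 ± 0.07 SE, n = 4 pairs, edgeR adjusted p = 0.52). SCAP was at 64.6, 66.6, 57.1 and 60.9 CPM in controls and at 66.7, 53.2, 57.9 and 58.5 CPM with doxycycline (log2 fold change -0.08 ± 0.08 SE, n = 4 pairs, edgeR adjusted p = 0.58). Of SCAP, 2 of 4 pairs were lower.

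The sequence before the start site is shown for 5 of the genes that fell, because genes of these pathways are classically described as bound by SREBP together with NF-Y and Sp1. The windows hold the 250 bases before the first listed start of each gene (RefSeq, GRCh38.p14), which for ELOVL6 lies within the annotated span of the gene, and 32 of the 36 genes had one. In all, 4 motifs were searched on both strands and are in capitals, namely a core of the sterol response element (TCACNCCAC), the NF-Y box (CCAAT), the GC box of Sp1 (GGGCGG) and the E-box (CACGTG), to which SREBP can also bind. They do not overlap one another in these windows. SREBF1 lies at chr17:17836987-17837236 on the minus strand, SREBF2 at chr22:41832855-41833104 on the plus strand, STARD4 at chr5:111512536-111512785 on the minus strand, ELOVL6 at chr4:110198616-110198865 on the minus strand and SCD at chr10:100346983-100347232 on the plus strand.
SREBF1: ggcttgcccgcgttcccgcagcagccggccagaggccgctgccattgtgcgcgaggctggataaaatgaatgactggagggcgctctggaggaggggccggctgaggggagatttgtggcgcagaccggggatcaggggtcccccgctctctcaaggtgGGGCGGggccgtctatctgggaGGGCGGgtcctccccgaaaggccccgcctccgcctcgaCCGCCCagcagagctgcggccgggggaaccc
SREBF2: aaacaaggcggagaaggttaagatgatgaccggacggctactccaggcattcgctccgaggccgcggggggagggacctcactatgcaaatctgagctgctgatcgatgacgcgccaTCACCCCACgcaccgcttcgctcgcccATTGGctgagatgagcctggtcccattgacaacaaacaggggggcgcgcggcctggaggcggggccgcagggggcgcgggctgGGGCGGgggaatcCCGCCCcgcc
STARD4: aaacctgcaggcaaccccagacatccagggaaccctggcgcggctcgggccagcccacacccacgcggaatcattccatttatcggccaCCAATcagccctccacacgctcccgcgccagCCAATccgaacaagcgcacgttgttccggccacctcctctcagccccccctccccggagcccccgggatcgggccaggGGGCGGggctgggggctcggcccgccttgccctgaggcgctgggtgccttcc
ELOVL6: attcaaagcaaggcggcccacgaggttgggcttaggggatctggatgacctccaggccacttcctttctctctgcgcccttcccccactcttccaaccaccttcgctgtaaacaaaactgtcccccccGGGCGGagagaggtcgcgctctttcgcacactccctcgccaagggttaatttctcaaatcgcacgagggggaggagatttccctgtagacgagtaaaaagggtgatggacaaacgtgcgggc
SCD: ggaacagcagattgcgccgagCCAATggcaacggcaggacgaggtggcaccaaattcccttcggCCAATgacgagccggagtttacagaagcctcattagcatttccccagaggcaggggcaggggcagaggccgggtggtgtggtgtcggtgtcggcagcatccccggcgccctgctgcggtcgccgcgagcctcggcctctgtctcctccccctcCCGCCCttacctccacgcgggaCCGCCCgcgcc

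SREBF2 was the only one of the 32 genes whose window held the TCACNCCAC core, 133 bases before the start. An NF-Y box lay between this core and the start, 106 bases before the start. Of all 27305 genes with a window, 0.875% held that core. The windows of STARD4 and SCD each held NF-Y boxes, whereas those of SREBF1 and ELOVL6, the genes with the largest falls, held GC boxes and no NF-Y box. The NF-Y box was in 19 of the 32 windows (59.4%, against 33.0% of all genes) and the GC box in 26 (81.2%, against 42.3%). The E-box was in 4, those of ELOVL5, INSIG1, SC5D and SCAP (12.5%, against 6.49%). The shares of all genes cover the 27305 genes with a window, more than the 15993 tested, whereas all 32 passed the count filter. Shares among the tested genes alone were not computed, so the contrast cannot be tied to these pathways. The starts were not checked against the transcripts that carried the reads, so a window may not precede the start of the RNA measured. A match only describes these letters, and a window without one says nothing of binding by a factor.

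None of the 8 enzymes that lead from acetyl-CoA to the isoprenoid diphosphates was called, although all 8 had a negative log2 fold change, with a median of -0.24 and the smallest adjusted p at 0.071 (edgeR). HMGCS1, the synthase at the head of the mevalonate pathway, was at 133, 91.8, 102 and 151 CPM in controls and at 128, 75.6, 57.8 and 108 CPM with doxycycline. Its log2 fold change was -0.40 ± 0.11 (SE, n = 4 pairs, edgeR adjusted p = 0.071), and the groups overlapped. The matched transcripts held 42.3% of the reads implied by the authors' mean, and reads moved between its near-identical transcripts from library to library, so its value is uncertain.

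GGPS1, which makes geranylgeranyl diphosphate for protein prenylation and stands off the sterol branch, was closest to no change of the sterol genes. It was at 31.3, 27.9, 29.6 and 35.6 CPM in controls and at 27.8, 29.5, 28.4 and 37.7 CPM with doxycycline (log2 fold change -0.02 ± 0.07 SE, n = 4 pairs, edgeR adjusted p = 0.91). FDPS, which makes the farnesyl diphosphate shared by both branches, had a log2 fold change of -0.11 ± 0.08 (SE, n = 4 pairs, edgeR adjusted p = 0.44), with 84.4% of its implied reads matched. Mevalonate kinase MVK had log2 ratios of 0.05 in the polyclonal population, -0.73 in clone 3, -0.72 in clone 5 and -0.20 in clone 6.

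Of the 12 enzymes from squalene to cholesterol, SQLE and SC5D fell and 10 were not called, with a median log2 fold change of -0.22. SQLE, the squalene epoxidase and a rate-limiting step, was at 215, 178, 164 and 220.4 CPM in controls and at 197, 152, 115 and 176 CPM with doxycycline. All 4 pairs went down and the groups overlapped. The log2 fold change was -0.29 ± 0.07 (SE, n = 4 pairs, edgeR adjusted p = 0.044), or 18.4% lower.

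SC5D, the desaturase that acts late in the pathway, had the largest change of the sterol genes. It was at 147, 119.8, 132 and 176 CPM in controls and at 122, 95.3, 70.4 and 130.3 CPM with doxycycline, and went down in every pair, most in clone 5. The log2 fold change was -0.48 ± 0.10 (SE, n = 4 pairs, edgeR adjusted p = 0.035), or 28.4% lower. The 10 enzymes that were not called ranged in log2 fold change from -0.44 ± 0.14 for TM7SF2 (edgeR adjusted p = 0.11) to -0.09 ± 0.07 for LBR (edgeR adjusted p = 0.47). Both encode proteins with sterol C14 reductase activity, and in clone 3 the log2 ratio was -0.66 for TM7SF2 and 0.14 for LBR.

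STARD4, which carries sterol between membranes and is itself regulated by sterols, also fell. It was at 64.6, 48.6, 59.0 and 60.2 CPM in controls and at 53.4, 40.7, 37.0 and 44.7 CPM with doxycycline. The polyclonal doxycycline culture lay above the control of clone 3, so the groups overlapped. The log2 fold change was -0.41 ± 0.08 (SE, n = 4 pairs, edgeR adjusted p = 0.029), or 24.6% lower. None of the sterol genes was called by edgeR when clone 3, clone 5 or clone 6 was left out, whereas leaving out the polyclonal population kept SC5D, lost SQLE and STARD4 and added HMGCS1. Without clone 5 the log2 fold change was -0.24 for SQLE (edgeR adjusted p = 0.15), -0.36 for SC5D (edgeR adjusted p = 0.066) and -0.34 for STARD4 (edgeR adjusted p = 0.098).

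**Figure D2:**
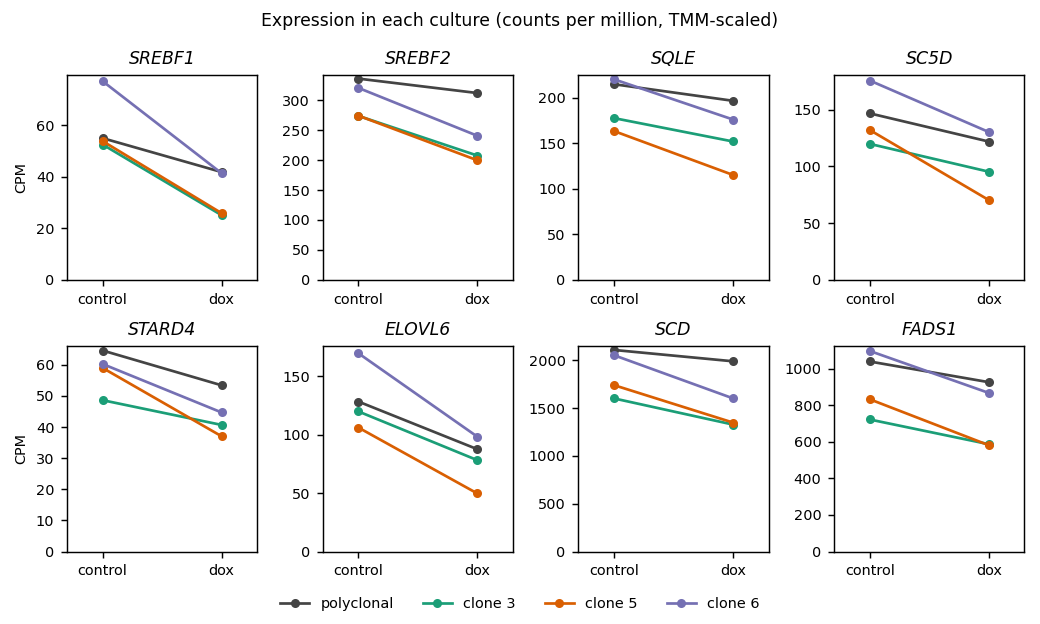
Expression in CPM (y axis, from 0) in each of the 8 cultures for the 8 genes that passed the test, with a line joining the control and the doxycycline culture of 1 origin. Every line slopes down. The polyclonal line has the smallest slope in SREBF1, SREBF2, SQLE, SCD, FADS1 and, by little, ELOVL6, but not in SC5D and STARD4. Only SREBF1 and ELOVL6 have no doxycycline culture at or above a control.

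Of the 10 fatty acid genes, 3 were called lower, the elongase ELOVL6 and the desaturases SCD and FADS1. The elongase ELOVL5 was not called (log2 fold change -0.23, edgeR adjusted p = 0.11). ELOVL6, which lengthens 16-carbon chains, had the largest change. It was at 128, 119.8, 106 and 169.6 CPM in controls and at 87.5, 78.1, 49.7 and 98.2 CPM with doxycycline, and the groups did not overlap. The log2 fold change was -0.76 ± 0.09 (SE, n = 4 pairs, edgeR adjusted p = 0.0073), or 40.9% lower, and it was called whichever origin was left out, with -0.67 without clone 5 (edgeR adjusted p = 0.029). By transcript, in CPM of all assigned reads without TMM scaling, NM_024090.3 was at 71.8, 58.7, 50.2 and 85.1 in controls and at 39.2, 29.9, 20.7 and 36.4 with doxycycline. The other main transcript, NM_001130721.2, was at 39.5, 41.6, 32.5 and 57.6 in controls and at 33.6, 38.1, 12.9 and 39.4 with doxycycline, so that it was lower by a smaller factor than the first in every origin but clone 5. The division of reads between transcripts of 1 gene is an estimate of Salmon.

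SCD, the desaturase that makes oleate, and FADS1, a desaturase of polyunsaturated fatty acids, were among the most abundant of the 36 genes. SCD was at 2108, 1602, 1740.2 and 2053 CPM in controls and at 1989.8, 1328, 1349 and 1602 CPM with doxycycline, a log2 fold change of -0.27 ± 0.06 (SE, n = 4 pairs, edgeR adjusted p = 0.041), or 17.1% lower. FADS1 was at 1039, 722, 833 and 1097 CPM in controls and at 926, 587, 582 and 868 CPM with doxycycline, a log2 fold change of -0.33 ± 0.06 (SE, n = 4 pairs, edgeR adjusted p = 0.026), or 20.5% lower. Both were lower in every pair, and in both the groups overlapped. Both lost the call without clone 3, clone 5 or clone 6 (edgeR adjusted p from 0.080 to 0.16 for SCD and from 0.061 to 0.10 for FADS1), and without clone 5 the log2 fold changes were -0.25 and -0.28. FADS2, the neighbour of FADS1 and the first desaturase of the same pathway, had a similar log2 fold change of -0.30 ± 0.08 (SE, n = 4 pairs) that was not called (edgeR adjusted p = 0.064).

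The enzymes that supply and build the first chain were not called by edgeR with all 4 origins. The log2 fold changes of FASN and ACSS2 were nevertheless similar in size to those of SCD (-0.27) and FADS1 (-0.33), which were called. FASN, the fatty acid synthase, was at 1349, 949.6, 1267 and 863 CPM in controls and at 1445, 741, 958 and 608 CPM with doxycycline (log2 fold change -0.29 ± 0.10 SE, n = 4 pairs, edgeR adjusted p = 0.11). It was higher with doxycycline in the polyclonal population and lower in the 3 clones, and the spread among controls was larger than the difference. FASN was called lower by DESeq2 with the block (adjusted p = 0.013) and by edgeR without the polyclonal population (adjusted p = 0.027). ACACA, the acetyl-CoA carboxylase of the cytosol, was at 137, 129.6, 113 and 135 CPM in controls and at 148, 109.6, 105 and 105 CPM with doxycycline (log2 fold change -0.15 ± 0.08 SE, n = 4 pairs, edgeR adjusted p = 0.30). ACLY and ACSS2, which make acetyl-CoA from citrate and from acetate, had log2 fold changes of -0.15 ± 0.06 (edgeR adjusted p = 0.17) and -0.36 ± 0.14 (edgeR adjusted p = 0.18; SE, n = 4 pairs).

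ACACB, the carboxylase of the mitochondrial surface, was measured only in part, since 9.66% of the reads implied by the authors' mean lay on matched transcripts. These reads came to 0.582, 2.36, 2.25 and 3.90 CPM in controls and at 2.46, 0, 3.75 and 3.79 CPM with doxycycline, a log2 fold change of -0.05 ± 0.92 (SE, n = 4 pairs, edgeR adjusted p = 0.98). They neither give the level of ACACB nor tell whether it differed.

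The 4 origins differed in how far the genes moved. On log2 ratios of CPM + 1, the median of the 21 sterol genes was -0.0045 in the polyclonal population, -0.28 in clone 3, -0.53 in clone 5 and -0.17 in clone 6. The median of the 10 fatty acid genes was -0.04, -0.30, -0.44 and -0.30 in the same order, and that of the 5 regulators was -0.09, -0.40, -0.46 and -0.39. Over all genes tested these medians lay between -0.0021 and 0.0080. The ratio was lowest in clone 5 for 17 of the 21 sterol genes and 7 of the 10 fatty acid genes, and highest in the polyclonal population for 14 of the 21 and 9 of the 10.

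**Figure D3:**
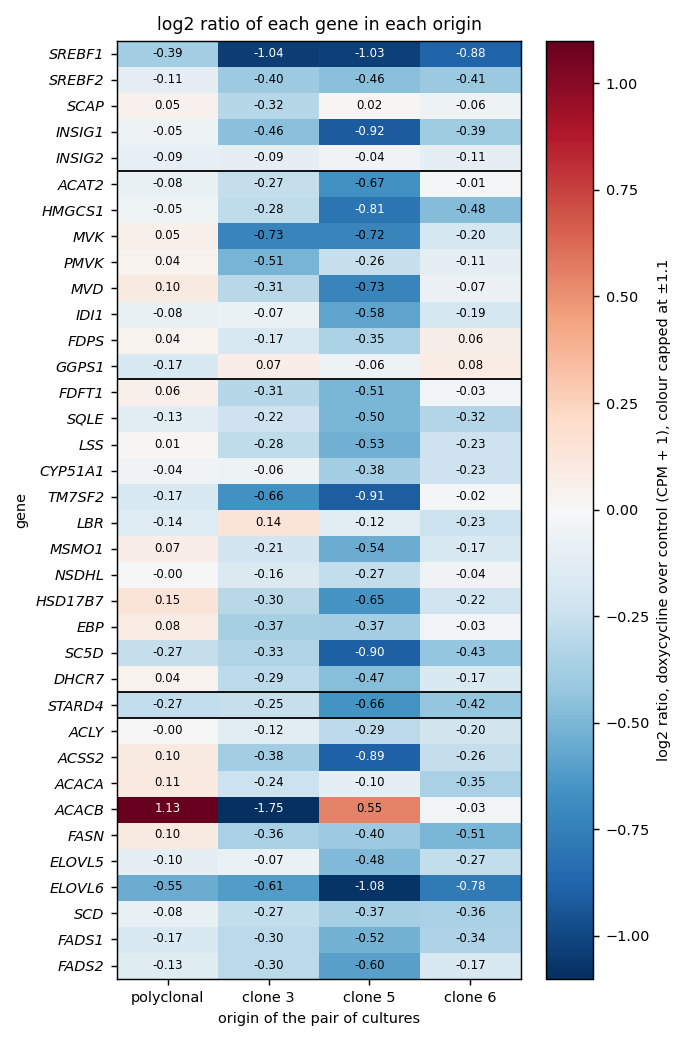
The log2 ratio of each of the 36 genes (rows) in each origin (columns), doxycycline over control on CPM + 1, with the value printed in each cell and blue for lower with doxycycline. The clone 5 column is the darkest blue, and the polyclonal column is pale apart from SREBF1, ELOVL6 and ACACB, which was matched only in part.

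In the polyclonal population 21 of the 36 genes had a lower value with doxycycline, while in each of clones 3, 5 and 6 there were 34 of 36. Of all 15993 genes tested, 7766 were lower in the polyclonal population and 7800, 8049 and 7843 in clones 3, 5 and 6. The lowest log2 ratios in the polyclonal population were -0.55 for ELOVL6, -0.39 for SREBF1 and -0.27 each for STARD4 and SC5D. A single pair gives no spread to judge these ratios by. With 1 pair per origin, a difference in response between origins could not be tested.

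The loss of FEZF1 also differed between origins, and its relation to the lipid genes was not tested. The log2 ratio of FEZF1 was -0.66 in the polyclonal population, -0.70 in clone 3, -0.81 in clone 5 and -1.01 in clone 6. The polyclonal population had the smallest difference both in FEZF1 and in the sterol median. Clone 6 had the deepest loss of FEZF1, and clone 5 the lowest sterol median. Before doxycycline the origins also differed. Among the controls, clone 3 had the lowest value of the 4 in 18 of the 21 sterol genes and clone 6 the highest in 15, while among the doxycycline cultures clone 5 was lowest in 14.

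**Figure D4:**
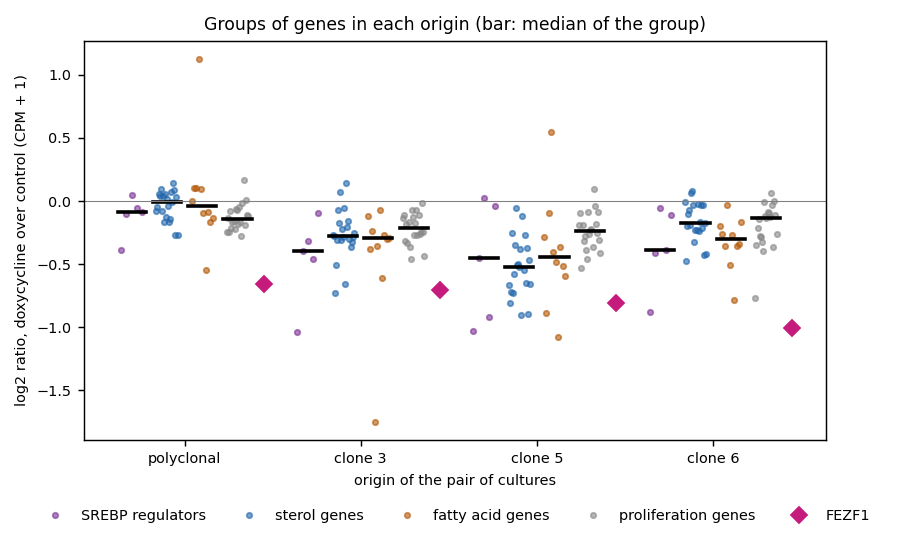
Log2 ratios (y axis, doxycycline over control on CPM + 1) of single genes by origin (x axis), for the 5 regulators, the 21 sterol genes, the 10 fatty acid genes and 20 proliferation genes, with a black bar at the median of each group and a diamond for FEZF1. The 3 groups of lipid genes lie lowest in clone 5 and near 0 in the polyclonal population, while the medians of the proliferation genes vary less, from -0.24 to -0.14.

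Of 20 proliferation genes, 8 were called lower and 12 were not called, against 3.91% of all genes tested called lower. In all 4 origins 16 of the 20 were lower, against 19 of the 36 lipid genes and 15.9% of all genes tested. In 4 of the 20 the groups did not overlap, against 2 of the 36 and 2.29% of all genes tested. DESeq2 with the block called 13 of the 20 lower, against 17 of the 36 and 8.31% of all genes with an adjusted p. All 20 had a negative log2 fold change, with a median of -0.18. The genes that fell included MCM6 (-0.39 ± 0.06), MCM3 (-0.29 ± 0.05), MCM5 (-0.31 ± 0.06), PCNA (-0.33 ± 0.06) and PLK1 (-0.26 ± 0.05; SE, n = 4 pairs, edgeR adjusted p from 0.013 to 0.030), which serve DNA replication and mitosis. Their median log2 ratio was -0.14, -0.22, -0.24 and -0.14 in the polyclonal population and clones 3, 5 and 6, and its part in the lipid genes' values was not tested.

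On a scale that corrects for length, the deposited TPM summed per gene, the 36 genes covered a wide range in control cultures. FADS2 was highest at 785 ± 134 TPM (SD, n = 4 cultures), followed by SCD at 600.2 ± 92.9, FDPS at 472 ± 98.8, ACAT2 at 449 ± 80.1 and FDFT1 at 410.3 ± 65.9, and each of these differed from the next by less than the sum of their SDs. The regulators were lower, with SREBF2 at 100.01 ± 14.2, INSIG1 at 79.4 ± 20.3, SCAP at 25.1 ± 2.41, SREBF1 at 21.0 ± 3.63 and INSIG2 at 12.4 ± 1.96 TPM. SREBF1 is understated here by the share of its reads that was not matched. Of the other genes that fell, STARD4 was at 26.7 ± 4.68 TPM and ELOVL6 at 33.4 ± 6.53 TPM.

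Other genes of lipid handling were counted for comparison, and their median log2 fold changes were nearer to 0. Of 11 genes that cleave SREBP or turn over its partners in the endoplasmic reticulum, and of 9 genes of sterol export and the LXR factors, none was called by edgeR (4 and 2 had an unadjusted p under 0.05, and DESeq2 with the block called 1 of each lower), with medians of -0.04 and -0.18. Of 10 genes of sterol storage and trafficking, GRAMD1B was called higher (log2 fold change 0.85 ± 0.20) and LIPA, the lysosomal acid lipase, lower (-0.44 ± 0.09; SE, n = 4 pairs, edgeR adjusted p = 0.048 and 0.026), with a median of 0.10. Of 12 genes that use isoprenoids, DHDDS was called higher (0.29 ± 0.07) and FNTB lower (-0.94 ± 0.12; SE, n = 4 pairs, edgeR adjusted p = 0.040 and 0.0086), with a median of 0.02.

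Of 22 other genes of fatty acid synthesis and activation, 19 were tested, FADS3 and ME1 were called higher (0.61 ± 0.10 and 0.22 ± 0.05) and MID1IP1 and ACSL3 lower (-0.48 ± 0.08 and -0.28 ± 0.06; SE, n = 4 pairs, edgeR adjusted p from 0.016 to 0.043). MID1IP1 promotes the assembly of acetyl-CoA carboxylase, and ME1 supplies NADPH. The matched transcripts of ME1 held 45.6% of the reads implied by the authors' mean. Those of GRAMD1B, named above, held 69.6%, and those of AGPAT3, named next, held 72.0%. The values of ME1, GRAMD1B and AGPAT3 therefore describe part of each gene's RNA. Of 22 genes of glycerolipid and phospholipid synthesis, PCYT1A was called higher (0.32 ± 0.06) and AGPAT3 lower (-0.45 ± 0.08; SE, n = 4 pairs, edgeR adjusted p = 0.020 and 0.022), with a median of 0.03.

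Of 20 genes of fatty acid oxidation, 19 were tested, with a median log2 fold change of 0.06. Of these, 4 were called higher and 1 lower. Among those called, ACADVL (0.47 ± 0.05), CPT1A (0.33 ± 0.07) and ECI2 (0.24 ± 0.06) were higher and HADHA (-0.27 ± 0.07; SE, n = 4 pairs, edgeR adjusted p from 0.0073 to 0.048) lower. CPT1A imports long chains into mitochondria, and ACADVL starts their oxidation there.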

How the data were processed

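The authors quantified transcripts with Salmon on RefSeq for GRCh38 and deposited, for each of 8 stranded mRNA libraries, estimated counts and TPM per transcript, and for the whole series a DESeq2 table (2.11.40.6 per the labels) whose mean column is a signal of the authors over all libraries and was used only to measure how many reads were matched. Its fold changes and p-values were left out. Here, 72.6% of 158867 transcripts were matched by accession to RefSeq symbols, curated and predicted transcripts were summed per gene, and expected counts were rounded. edgeR 4.0.16 (R 4.3.3) fitted quasi-likelihood models with the origin as a block, TMM factors and filterByExpr, with Benjamini-Hochberg adjustment over 15993 genes and a threshold of 0.05. SE is the log2 fold change over the root of F. Log2 ratios per origin used a pseudocount of 1 CPM.

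The pairing comes from the labels, since each origin gave 1 control and 1 doxycycline culture. Deviations of the 2 cultures of 1 origin correlated at 0.41 to 0.59, those of different origins at -0.40 to 0.18. DESeq2 1.42.0 was an alternative. The 36 genes and the comparison lists were chosen with earlier results of these data known. Values per library were given for the regulators, the called genes, SQLE, HMGCS1, FASN, ACACA, SCD, and the genes with the largest and smallest change of each pathway; of other lists, up to 5 called genes with the smallest p were named, except 1 that is not reported here.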

Additional observations from a re-analysis of the deposited data

Results flagged for a closer look

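In 72 groups of 4 cultures (36 genes, 2 conditions), 2 held a culture far from the other 3, where chance alone would give 3.6. SREBF1 was at 77.0 CPM in the control of clone 6, against 52.4, 53.8 and 54.9 CPM in the other controls. ACACA was at 148 CPM in the polyclonal doxycycline culture, against 105, 105 and 109.6 CPM in the other doxycycline cultures.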

How the results depend on the processing

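The 36 single genes kept their direction and side of the threshold in 401 comparisons with an alternative, lost the call in 41 and gained it in 19. In 6 the sign changed, none of a called gene: SCAP without clone 3 (0.0032), GGPS1 without the polyclonal population (0.029, with -0.053 as the lowest value when 1 origin was left out), and ACACB without clone 3 (0.85), without the block in edgeR (0.14) and DESeq2 (0.12) and on curated transcripts (0.25). The median log2 fold changes of the sterol and fatty acid genes stayed negative under all 13 alternatives (sterol -0.32 to -0.13, fatty acid -0.37 to -0.23), and those per origin moved by less than the SD over origins with other pseudocounts (0.5 and 5 CPM) or on TPM.

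The counts of calls changed. Without the replicate block, that is without the pairing, edgeR called 1 gene in all, 0 sterol, 0 fatty acid and 0 regulator genes and 0 genes of the comparison lists, also when each origin was left out (0 of the 36, an alternative chosen after seeing the data), and FEZF1 had a log2 fold change of -0.80 with an adjusted p of 0.29. DESeq2 without the block called 232 genes in all, 0 sterol, 0 fatty acid, 1 regulator and 4 comparison genes, and with the block 1920, 8, 6, 3 and 35. On curated transcripts alone edgeR called 493 genes in all, 0 sterol and 1 regulator genes and 9 comparison genes, and with a filter of 1 read in any library 5 sterol genes. Leaving out 1 origin gave 175 to 699 genes in all, 0 to 2 sterol, 1 to 4 fatty acid, 0 to 3 regulator and 2 to 13 comparison genes; the numbers were lowest without clone 5 for all genes and the comparison lists. Among regulators with at least 80% of their reads matched, chosen after seeing the data, 1 was called. Leaving out an origin leaves fewer cultures; the cause of the other changes was not tested.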
